A study of Mus musculus with 10 samples.

Results

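The places on DNA held by SMAD2 and SMAD3 in mouse embryonic stem cells (ESCs) were compared with those held in endoderm derived from the same cells. The members were all regions of the 2 deposited SMAD2/3 lists, 4111 in ESCs and 11033 in endoderm, or 15144 of the 78263 regions in the 6 lists of the series. A region was called shared when it overlapped a region of the other list by at least 1 bp, and ESC alone or endoderm alone otherwise. This gave 1590 shared and 2521 ESC alone regions in the ESC list, and 1567 shared and 9466 endoderm alone regions in the endoderm list.

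Chromatin immunoprecipitation with sequencing (ChIP-seq) was done with 1 antibody against SMAD2/3 in both states. The ESC group was the CGR8 mouse line, kept on gelatin without feeder cells in medium with serum and the cytokine LIF. The endoderm group was CGR8 cells moved to serum-free medium, given Activin A at 100 ng/ml on day 2 and taken for chromatin after 48 hours, on day 4. Both groups therefore come from 1 line, and neither received the receptor inhibitor SB431542 that other groups of the series received. Each state had 1 ChIP library, and an input library of each state entered only through the background columns of its list. The cells were not sorted, so binding in fewer cells and less binding per cell cannot be told apart. No spread between cultures was measurable, so no test across samples was made, and every difference below is one between these 2 libraries.

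SMAD2 and SMAD3 are the transcription factors of the Nodal, activin and TGF-beta branch of signalling. The activated receptors phosphorylate them, they join SMAD4, enter the nucleus and bind DNA weakly at a short motif called the SMAD box, usually beside a partner such as FOXH1. The pathway feeds back on itself through targets that encode its ligand Nodal, the co-receptor Cripto, the secreted inhibitors Lefty1 and Lefty2 and the intracellular inhibitors Smad7, Pmepa1, Ski and Skil. In pluripotent cells Nodal and activin signals act beside the pluripotency factors, and at a high level they direct cells to mesendoderm and definitive endoderm.

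The promoters of Nodal, Nanog, Cer1 and Zfp42 are printed because their 5′ ends were covered in both states (Nodal and Nanog), in endoderm alone (Cer1) and in ESCs alone (Zfp42). They are the 250 bases before the start of the first promoter listed for each gene in RefSeq (build GRCm38.p6, whose positions differ from the mm9 positions of the regions), 5′ to 3′ on the gene's strand. Capitals mark the SMAD box (CAGAC) and the FOXH1 motif (AATNCACA), each searched on both strands.
Nodal promoter, chr10:61417722-61417971 (+): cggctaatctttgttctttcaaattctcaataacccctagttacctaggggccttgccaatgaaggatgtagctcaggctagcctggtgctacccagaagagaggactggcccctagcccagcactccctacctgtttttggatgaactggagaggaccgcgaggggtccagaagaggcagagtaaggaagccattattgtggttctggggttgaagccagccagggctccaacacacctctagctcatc
Nanog promoter, chr6:122707239-122707488 (+): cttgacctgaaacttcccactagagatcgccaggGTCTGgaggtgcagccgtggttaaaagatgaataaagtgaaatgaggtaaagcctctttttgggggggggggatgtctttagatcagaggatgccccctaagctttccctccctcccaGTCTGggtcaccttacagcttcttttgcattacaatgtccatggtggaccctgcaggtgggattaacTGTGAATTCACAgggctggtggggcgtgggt
Cer1 promoter, chr4:82885152-82885401 (-): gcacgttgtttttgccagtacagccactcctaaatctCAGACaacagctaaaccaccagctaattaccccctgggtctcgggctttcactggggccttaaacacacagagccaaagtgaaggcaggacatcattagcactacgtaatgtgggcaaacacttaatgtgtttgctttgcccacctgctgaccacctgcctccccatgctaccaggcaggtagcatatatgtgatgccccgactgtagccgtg
Zfp42 promoter, chr8:43307010-43307259 (-): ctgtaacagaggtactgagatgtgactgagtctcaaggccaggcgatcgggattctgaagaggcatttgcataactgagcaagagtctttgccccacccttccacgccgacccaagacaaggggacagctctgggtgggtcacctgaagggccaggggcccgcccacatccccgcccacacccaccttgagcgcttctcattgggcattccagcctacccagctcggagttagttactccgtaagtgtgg
The Nanog promoter held 2 SMAD boxes and 2 FOXH1 matches, which overlap each other on opposite strands. Cer1 held 1 SMAD box. Nodal and Zfp42 held neither motif in this window, and Zfp42, a zinc finger gene used as a marker of ESCs, held 1 octamer (ATGCAAAT), the motif of OCT4. A match is a string of letters and not a measured site. A covered 5′ end also does not place the highest signal in the printed window. At Nodal the highest points lay past the 5′ end, at 60882036 in ESCs and 60882020 in endoderm (mm9), outside the window. The sequence under them was not read, so motifs missing here may be present there.

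Among all 27025 promoters of the table, 42.1% held a SMAD box, 3.24% a FOXH1 motif and 32.1% the GC-type SMAD element GGCGC. Of the 264 promoters whose 5′ end lay under a shared region, 47.3% (95% CI 41.2 to 53.6) held a SMAD box, 2.65% (1.07 to 5.39) a FOXH1 motif and 65.5% (59.5 to 71.2) GGCGC. Of the 64 covered in ESCs alone, 50.0% (37.2 to 62.8) held a SMAD box and 6.25% (1.73 to 15.2) a FOXH1 motif. Of the 2067 covered in endoderm alone the shares were 41.8% (39.6 to 43.9) and 2.03% (1.47 to 2.74). The SMAD box intervals of all 3 sets included the share of all promoters, and the FOXH1 interval of the endoderm alone set lay below it. The octamer was in 4.69% (0.977 to 13.1) of the ESC alone promoters, whose interval includes the 1.61% of all promoters. GC content moved with the GGCGC count. Its median was 62.0% in promoters covered in both states and 63.6% in endoderm alone, against 52.0% over all promoters. The part of GC content in the GGCGC shares and in the lower FOXH1 share of the endoderm alone set was not tested.

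The first comparison asked how far the 2 lists coincide. Of the ESC regions 38.7% (exact Clopper-Pearson 95% CI 37.2 to 40.2) were shared, and of the endoderm regions 14.2% (13.6 to 14.9). These intervals, like all others here, cover counting error only. The endoderm list is longer, so the shares are not measures of loss and gain. With both lists limited to 4111 regions by ChIP height, the ESC share was 25.0%. With both limited by tag enrichment, the authors' ratio of ChIP to background tags, it was 19.2%. The ChIP height is the highest point of the deposited ChIP signal in a region. Its unit and scaling between libraries are not given, and both lists start at 25.0, so heights are read here by rank within a list. Where a ratio of heights is printed it compares deposited values, and the ratios of all overlapping pairs are given for reference.

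Where regions did overlap, they did so nearly point for point. Over the 1602 overlapping pairs the positions of highest signal lay a median of 14 bp apart (quartiles 6 and 33), and 1392 pairs (86.9%) lay within 100 bp. Only 72 pairs lay over 500 bp apart. One to one matches were the rule, at 1512 of the 1602 pairs. Of the ESC regions 1578 had 1 partner and 12 had 2. Of the endoderm regions 1533 had 1, 33 had 2 and 1 had 3 or more. The endoderm region was the wider in 1063 pairs (66.4%).

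Ranked by ChIP height, high endoderm regions were shared more often than low ones, and in ESCs the slope was smaller. By decile of ChIP height the shared share of the endoderm list was 4.71% at the bottom and 37.6% at the top. In the ESC list it was 37.0% in the lowest decile, stayed between 32.4% and 38.2% up to the eighth, and reached 44.8% in the ninth and 54.3% in the highest. Of the 100 highest regions 76 in ESCs and 61 in endoderm were shared. The median shared region stood at percentile 74.7 of the endoderm list (95% CI 72.5 to 76.7), against 46.1 for the endoderm alone regions. In ESCs these medians were 53.9 (51.1 to 56.8) and 47.9, and ranked by tag enrichment their order turned, at 49.3 and 50.4. By decile of tag enrichment the ESC shared share did not rise steadily. It was largest in the lowest decile, 56.4%, where 43.3% of regions lay within 1 kb of a gene's 5′ end. In the third decile it was 30.4% and in the highest 51.3%. In endoderm the lowest and highest deciles of tag enrichment had 11.1% and 28.6%. High regions nevertheless occurred among those found in 1 state alone, since 71 ESC alone and 376 endoderm alone regions reached a height of 100, and 6 and 78 reached 200.

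**Figure D1:**
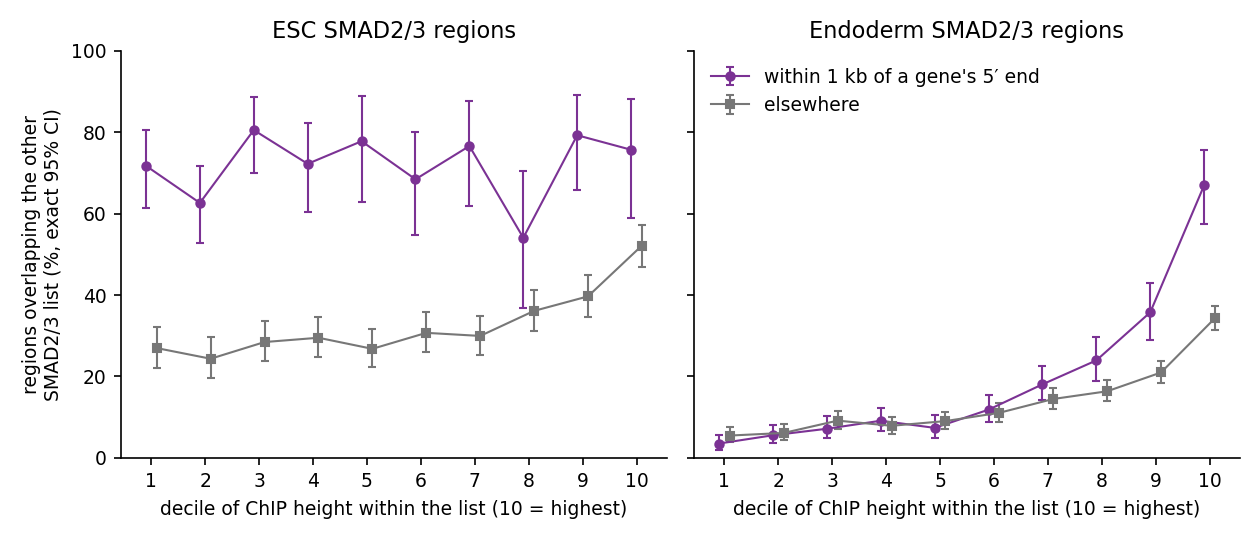
Share of SMAD2/3 regions that overlap the list of the other state (y axis, percent with exact 95% CI) by decile of ChIP height within the list (x axis, 10 is highest), for ESC regions on the left and endoderm regions on the right. Circles are regions within 1 kb of a listed gene's 5′ end and squares are all others. In ESCs the circles lie above the squares in all 10 deciles, while in endoderm the 2 lines separate only toward the highest decile, 67.0% against 34.3%.

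Location differed between the classes of the deposited ESC list. Regions within 1 kb of the 5′ end of a gene the authors assigned are called promoter-proximal. They made up 28.1% (25.9 to 30.4) of the shared ESC regions and 7.02% (6.05 to 8.09) of the ESC alone regions. Read the other way, 447 of 624 promoter-proximal ESC regions were shared (71.6%, 67.9 to 75.1), against 1143 of 3487 others (32.8%, 31.2 to 34.4). Directly over a 5′ end lay 19.0% of the shared and 3.25% of the ESC alone regions. The promoter-proximal regions were shared more often in 10 of 10 deciles of ChIP height, with separate intervals in 9, and likewise in 10 of 10 deciles of tag enrichment, with separate intervals in 9. The gap changed with the regions kept and, at equal length, with the measure that ranked them. With equal length by ChIP height it was 25.1% against 11.9%, and with equal length by tag enrichment the shares were 16.0% and 15.0%, with overlapping intervals.

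In the endoderm list promoter-proximal regions made up 28.5% of the shared and 30.6% (29.7 to 31.6) of the endoderm alone regions. The order of these shares depended on the regions kept, at 25.3% against 18.0% with equal length by ChIP height, 15.8% against 11.6% with equal length by tag enrichment, and 18.0% against 29.1% with a tag enrichment of at least 5. The shared share of each location changed along the list. In the highest decile of ChIP height 67.0% (57.4 to 75.6) of the 112 promoter-proximal regions were shared, against 34.3% of the others, while in the lowest decile 3.51% of 427 promoter-proximal and 5.47% of the other regions were. The endoderm list thus held many low promoter-proximal regions with no ESC partner. Over all endoderm regions, shared or not, the median tag enrichment was 7.14 at promoters and 10.9 elsewhere, with 26 and 16 background tags, and in ESCs 5.05 and 7.40, with 29.5 and 24. The part of this background in the promoter counts was not tested.

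The distance from a region of 1 state alone to the nearest region of the other state varied widely. Of the ESC alone regions 151 (5.99%) had an endoderm region within 1 kb, 719 (28.5%) within 10 kb and 1629 (64.6%) within 50 kb, with a median distance of 29696 bp. For the endoderm alone regions these were 167 (1.76%), 943 (9.96%) and 2651 (28.01%), with a median of 142614 bp. The endoderm list offers more neighbours than the ESC list, so the shares for the 2 classes are not comparable with each other.

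HEB, the E protein encoded by Tcf12, was profiled in the same cells, and its lists are a readout that the classes did not use. ESC alone regions overlapped ESC HEB at 88.7% (95% CI 87.4 to 89.9) and endoderm HEB at 12.2%. Shared regions of the ESC list had HEB in both states more evenly, at 76.3% and 65.2%. Endoderm alone regions overlapped endoderm HEB at 59.8% and ESC HEB at 21.4%, and 36.2% of them overlapped HEB in neither state. Seen from the ESC list, 77.1% of the regions with HEB in endoderm were also SMAD2/3 regions in endoderm, against 19.99% of those without. Whether HEB and SMAD2/3 were set against 1 input library in each state is not given, and the part of a common input in these overlaps was not tested.

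**Figure D2:**
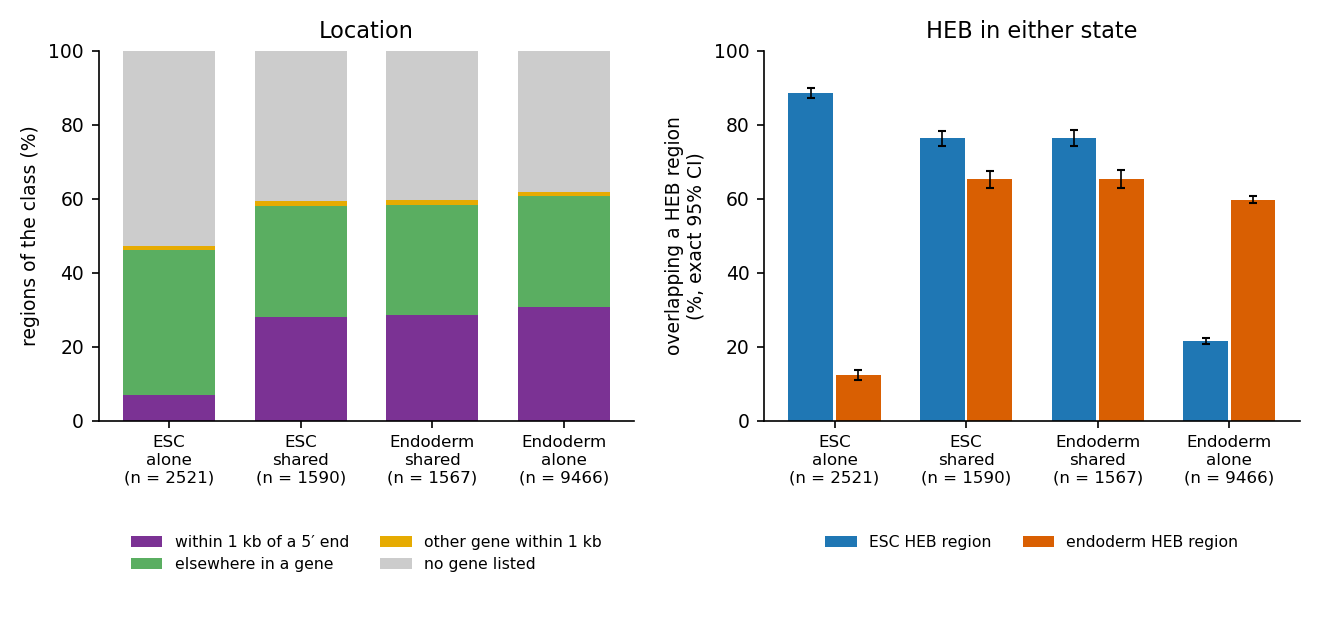
Left, location of the SMAD2/3 regions of each class (y axis, percent of the class; bars are stacked). Right, percent of each class that overlaps an ESC HEB or an endoderm HEB region (bars with exact 95% CI). The ESC alone class has the smallest promoter-proximal part, 7.02%, and its HEB overlap falls from 88.7% with ESC HEB to 12.2% with endoderm HEB.

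The pathway's own genes were next compared by role. Of the 30 genes on the Nodal/activin list 13 had a SMAD2/3 region in ESCs and 21 in endoderm, where 7.41% and 23.4% of 21627 protein-coding genes had one. Of these, 12 were listed in both states (5.34% of protein-coding genes), 1 in ESCs alone (2.07%) and 9 in endoderm alone (18%). At all 12 genes of both states at least 1 region overlapped between them, against 76.6% of the 1196 genes of both states. With lists of equal length by ChIP height the list counted 13 genes in each state. The 23.4% belongs to the full endoderm list, and the share of all genes in the shortened list was not computed. Skil, Nodal and Pmepa1, the genes taken as markers of activin signalling, had a region in both lists. Regions do not measure expression, so the identity of the endoderm cells was not checked with them.

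Among the ligands, Nodal had 2 regions in each state and both were shared. The region over its 5′ end (chromosome 10, 60880588 to 60882411 in ESCs, mm9) had a height of 133 in ESCs, rank 98, and 959 in endoderm, rank 7, with highest points 16 bp apart. The region before it (60878246 to 60879769, 951 bp from the 5′ end) ran the other way, at 90.7 in ESCs, rank 232, and 25.3 in endoderm, rank 10738, close to the lowest height listed. The heights at 1 gene thus moved in opposite directions between the libraries. Over all 1602 pairs the endoderm height divided by the ESC height had a median of 1.30, with 90% of pairs between 0.474 and 4.09, and the ratios at Nodal were 7.20 and 0.279. Gdf3, which encodes a Nodal-related ligand, was listed in ESCs alone at 44.0, and Gdf1, which encodes another ligand of the family, in endoderm alone at 26.2. Inhba and Inhbb, which encode the activin subunits, had no region in either list.

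Among the receptors, Tdgf1, which encodes Cripto, had 2 shared regions. The higher one (chromosome 9, 110849485 to 110850917) had a height of 320 in ESCs, rank 15, and 707 in endoderm, rank 15. It was the only co-receptor or receptor gene listed in ESCs. Acvr1b and Tgfbr1, which encode type I receptors, had a region over the 5′ end in endoderm alone, at 30.7 and 39.1. Acvr1c, Acvr2a and Acvr2b had none.

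Of the transducers and partners, Foxh1 had a shared region over its 5′ end, low in both states at 30.4 and 27.8. Smad3 was listed in endoderm alone (33.2, over the 5′ end), and Smad2 and Smad4 in neither. Smad3 stood at percentile 46.0 of the endoderm list, and the Foxh1 region at 35.5 in ESCs and 19.9 in endoderm, so all were below the median of their list.

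The secreted inhibitors were divided. Lefty1 had 1 region over its 5′ end (chromosome 1, 182863307 to 182865708) with a height of 445 in ESCs, rank 10, and 426 in endoderm, rank 39. Lefty2, which lies next to it, had 58.8 and 54.5 over its 5′ end. Both had ratios of endoderm to ESC height near 1, at 0.957 and 0.927, below the median of all pairs. Cer1, which encodes the secreted Nodal antagonist Cerberus, was listed in endoderm alone over its 5′ end (chromosome 4, 82530902 to 82532453; height 176, rank 214, 1475 ChIP and 63 background tags). The nearest ESC region lay 370618 bp away. Fst, which encodes the activin-binding follistatin, and Ltbp1 were also listed in endoderm alone, at 36.3 and 47.1.

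The intracellular and membrane inhibitors were mostly held in both states. Smad7 had a shared region over its 5′ end at 105 in ESCs and 237 in endoderm, and Smad6 one at 55.2 and 95.7. Bambi, a pseudoreceptor gene, had one at 43.1 and 86.4. These 3 regions stood at percentiles 95.9, 81.8 and 69.3 in ESCs and at 98.9, 93.6 and 92.0 in endoderm. Their ratios of deposited height were 2.25, 1.73 and 2.01, all within the range of 90% of pairs. Smurf2, a ubiquitin ligase gene, was listed in endoderm alone at 36.4.

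Pmepa1, which encodes a membrane protein that withholds SMAD2 and SMAD3 from the receptor, had more ESC regions than any other gene, 10, and 11 in endoderm. Only 5 of them were shared. The shared region over its 5′ end (chromosome 2, 173101909 to 173102344 in ESCs) had a height of 61.9 in ESCs, rank 559, and 429 in endoderm, rank 38, a ratio of 6.93. The shared region inside the gene, 36817 bp from the 5′ end in ESCs, had 196 and 320. Another high endoderm region (173082959 to 173084468, 195, rank 177) had no ESC partner, the nearest ESC region being 4640 bp away. The highest point in Pmepa1 was therefore the one inside the gene in ESCs and the one at the 5′ end in endoderm.

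The corepressor genes Skil and Ski parted. Skil had a region over its 5′ end of height 216 in ESCs (chromosome 3, 30992945 to 30994529, rank 37). In endoderm a single region of 2649 bp (30992519 to 30995167) reached 680, rank 16, and overlapped that region and a smaller ESC region on each side of it. Ski had its highest region 31880 bp inside the gene (chromosome 4, 154563504 to 154564764), at 521 in ESCs, rank 8, and 226 in endoderm, rank 132. It was 1 of 7 ESC regions of Ski, of which 3 were shared. All 3 stood at a lower percentile in endoderm, with ratios of deposited height of 0.696, 0.556 and 0.434. The second highest ESC region of Ski (154537312 to 154538284, 194) had no endoderm region within 9072 bp. Tgif1 had a shared region at 36.7 and 25.2 and 3 more in endoderm alone, and Tgif2 was listed in endoderm alone at 38.6.

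**Figure D3:**
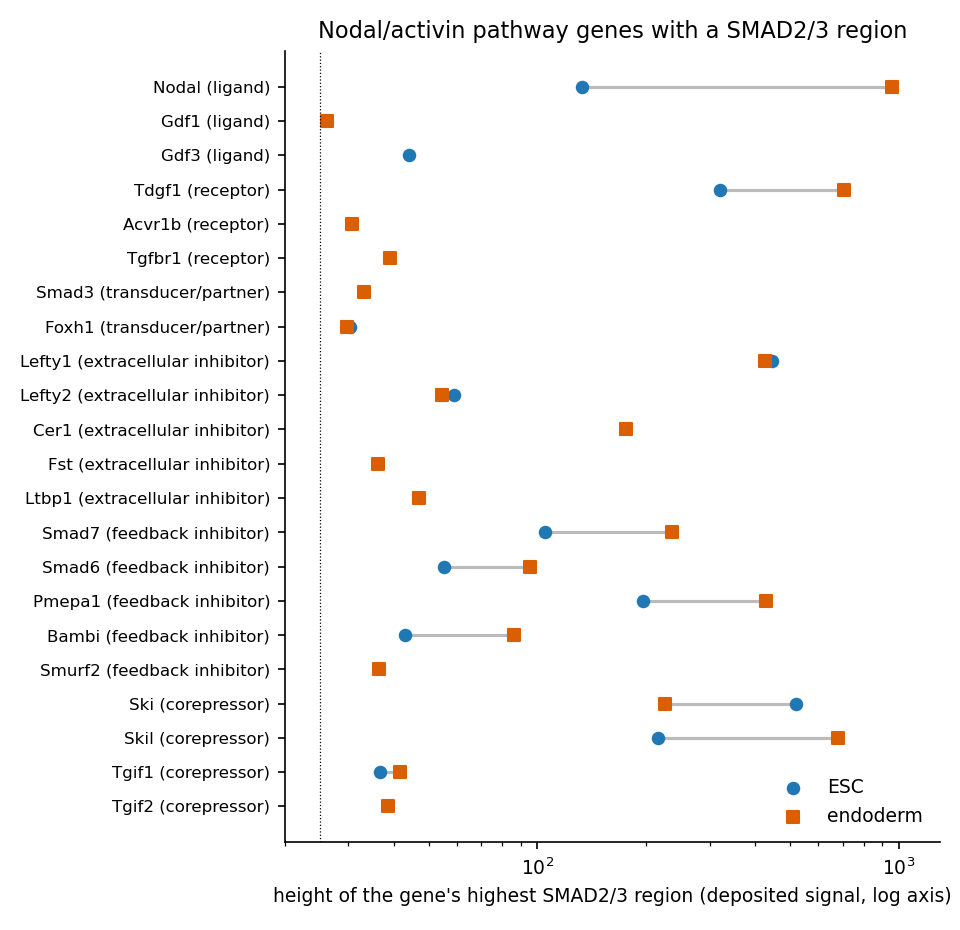
Height of the highest SMAD2/3 region of each Nodal/activin gene with a region in either state (x axis, deposited ChIP signal, log axis; circles ESC, squares endoderm, grey lines join the 2 states, the dotted line marks the lowest height listed). Of the genes with both symbols Nodal shows the widest step, 133 to 959, Ski runs the other way, 521 to 226, and the genes with squares alone sit below 50 except Cer1 at 176.

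Pluripotency genes were listed more often in ESCs. Of 20 genes 12 had a region in ESCs and 9 in endoderm. Of these, 5 were in both, all with an overlapping region, 7 in ESCs alone and 4 in endoderm alone. Among all protein-coding genes 7.41% were listed in ESCs, 23.4% in endoderm, 5.34% in both, 2.07% in ESCs alone and 18% in endoderm alone, so the endoderm alone count is near the share of all genes. Nanog and Pou5f1, the genes of 2 core factors, kept their sites. Nanog had 73.0 in ESCs and 117 in endoderm over its 5′ end (chromosome 6, 122657100 to 122657710 in ESCs). Pou5f1, which encodes OCT4, had 80.2 and 86.6 at the region 549 bp from the 5′ end. Its region over the 5′ end had 58.1 in ESCs, percentile 84.1, and 32.5 in endoderm, percentile 43.5, and there was a further ESC region at 38.1 without an endoderm partner. Of the genes listed in ESCs alone, the naive-state factor Tfcp2l1 had 4 regions (highest 89.9), and the others included Dppa5a (81.2), Prdm14 (52.9) and Nr5a2 (5 regions, highest 40.8). Sall4 (131, 4082 bp from the 5′ end) and Sox2 (43.0, 354 bp from the gene) were listed in endoderm alone. The Sox2 region lay 245 bp from an ESC region to which no Sox2 assignment was given.

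Esrrb, a nuclear receptor gene of the ESC network, had regions listed in ESCs alone and in endoderm alone within 1 gene. It had 7 regions in ESCs, led by chromosome 12, 87842458 to 87843301 (183, rank 53), with no endoderm region within 2270 bp. In endoderm it had 4, and only 1 was shared (99.8 in ESCs, 32.2 in endoderm). The other 3 endoderm regions lay between 52501 and 67024 bp from the nearest ESC region. The highest was at 49.5, and those at 28.5 and 27.6 were close to the lowest height listed.

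Definitive endoderm genes were found in endoderm alone. None of 20 had a region in ESCs, where a count of 0 leaves only that no region passed the authors' threshold, and 12 had one in endoderm. Among all protein-coding genes 7.41% had a region in ESCs, so a list of this size would hold few, 23.4% had one in endoderm and 18% in endoderm alone. Eomes, a T-box gene required for definitive endoderm, had the highest, 206 at rank 158, which lay 8076 bp away from the start of the gene. This region lay 989 bp from an ESC region not assigned to Eomes. Gsc (121), Lhx1 (112), Mixl1 (103) and Otx2 (103), genes of the organizer and early mesendoderm, each had a region over the 5′ end. Gata4 (75.3), Frzb (71.2) and Gata6 (66.0) followed, and the regions of Foxa2 (36.8) and Foxa1 (32.2) stood at percentiles 56.6 and 42.1. Sox17, Sox7, Hhex, Hnf4a, Foxa3, Dkk1 and Sfrp5 were among those with no region in either list. With lists of equal length by ChIP height, 9 of the 20 were listed in endoderm. The shares of all genes given here belong to the full lists, and none was computed for the shortened endoderm list.

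As deposited, the other lists also had more genes in endoderm, as did all protein-coding genes (7.41% in ESCs, 23.4% in endoderm). With equal length by ChIP height this held for 6 BMP genes against 3 in ESCs, 6 Wnt genes against 4 and 4 neuroectoderm genes against 3. It ended for the FGF and ERK feedback genes (7 in each state), the mesoderm genes (2 in each) and the extraembryonic and epithelial genes (2 in each), and turned for the ribosomal genes (1 against 2). For these equal-length counts the share of all genes in the shortened endoderm list was not computed. Of 14 FGF and ERK feedback genes 7 (50%) were listed in ESCs and 11 (78.6%) in endoderm. Among them were Fgf15 (47.5 and 127 at its highest shared region) and Etv5 (103 and 130). Fgf5 (126) and Dusp6 (87.8) were in endoderm alone. Of 15 Wnt genes 4 and 12 were listed (26.7% and 80%). The R-spondin receptor gene Lgr4 had 225 and 364 over its 5′ end, and Tcf7l1, a repressor of Wnt targets, 45.2 and 252 at a region far inside the gene. Of 13 BMP genes 3 and 6 were listed (23.1% and 46.2%). Id1 had 53.3 and 103 at one shared region, and Smad1 (199) was in endoderm alone. Mesoderm genes numbered 2 and 7 of 23 (8.70% and 30.4%) and neuroectoderm genes 3 and 10 of 23 (13.0% and 43.5%). Extraembryonic and epithelial genes numbered 2 and 9 of 15 (13.3% and 60%). Wnt3a went against the trend, with a shared region of 87.2 in ESCs and 26.9 in endoderm. The comparison list of 20 ribosomal protein genes had 2 and 5. Against the 7.41% and 23.4% of all protein-coding genes, these ribosomal shares were 10% and 25%.

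The highest regions of each class were then read by gene. Among the highest shared regions of endoderm, Chst15, a sulfotransferase gene, had 819 in endoderm and 96.8 in ESCs, and Atp8a1, a phospholipid flippase gene, 766 and 52.8. At the other end Pgpep1 had 722 in ESCs, rank 6, and 100 in endoderm. Among all pairs the rank correlation of height was modest (Spearman rho 0.32 over 1602 pairs) and that of tag enrichment larger (0.64). The background tags of the pairs, which come from input without antibody, also correlated (0.48), and their part in the other correlations was not tested. Of 410 pairs whose ESC region stood in the upper 20% of its list, 256 had the endoderm region in the upper 20% as well and 21 in the lowest 20%. Of 296 pairs whose ESC region stood in the lowest 20%, 77 had the endoderm region in the upper 20% and 31 in the lowest.

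**Figure D4:**
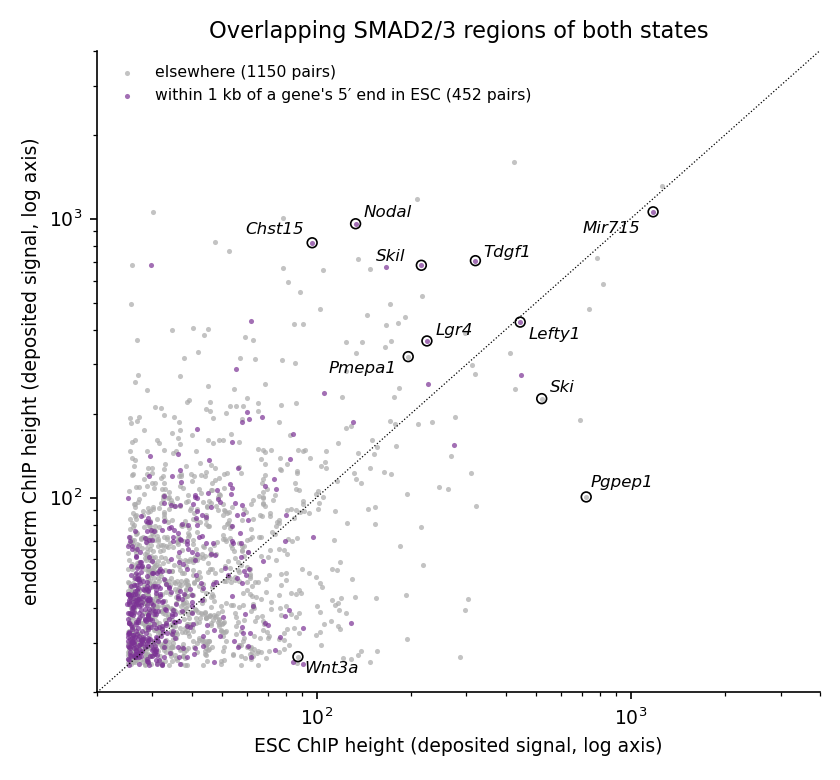
ChIP height in ESCs (x axis, log) and in endoderm (y axis, log) of the 1602 overlapping region pairs, with pairs that are promoter-proximal in ESCs in purple. The dotted line marks equal deposited values, whose scaling between libraries is not given; the marked Nodal pair (133 and 959) and Chst15 lie far above it and Pgpep1, Ski and Wnt3a below it.

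A few of the highest shared regions had high input. The region at Mir715 on chromosome 17 held 15103 ChIP tags in ESCs against 4150 background tags, and that at Sfi1 4177 against 3022. Regions with 200 or more background tags numbered 4 in each list, and without them no share, site class or gene list count left its interval or changed by over 1.5 times.

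The highest ESC alone regions with a gene were in Col13a1 (246), a transmembrane collagen gene, then Ski (194), Zmynd8 (186), which encodes a chromatin reader, Esrrb (183) and Thada (178). All 10 of the highest overlapped ESC HEB and 8 had no endoderm HEB. Over all ESC alone regions 88.7% overlapped ESC HEB and 12.2% endoderm HEB, so these counts are near the shares of the class. The highest endoderm alone region with a gene covered the 5′ end of Mycl1, which encodes L-MYC (chromosome 4, 122672621 to 122675353; 832, rank 8). No ESC region lay within 625327 bp of it. It was followed by Dnajc17 (350), Pdzrn3 (341), Otx2os1 (332), the antisense neighbour of Otx2, Gpm6b (309), Cd59a (303) and the axon guidance gene Ntn1 (296). All of the 10 highest overlapped endoderm HEB and 2, Mycl1 and Unc5b, also ESC HEB. Over all endoderm alone regions these shares were 59.8% and 21.4%.

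Most genes had 1 region. Of the 1676 genes with an ESC region 76.9% had 1, and of the 5246 with an endoderm region 76.4%. Among the 1196 genes of both states, 677 had the same number in each, 382 more in endoderm and 137 more in ESCs. Auts2, a gene of neuronal development, went from 2 regions in ESCs to 17 in endoderm, none of them shared. Maml3, which encodes a Notch coactivator, went from 0 to 12. Myo10, an unconventional myosin gene, went from 8 to 1, Rara, the retinoic acid receptor alpha gene, from 7 to 3 and Tmem51 from 7 to 1. In Myo10 the single endoderm region lay on an ESC region (67.3 in ESCs, 113 in endoderm), and the 7 other ESC regions had heights of 26.4 to 81.0.

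**Figure D5:**
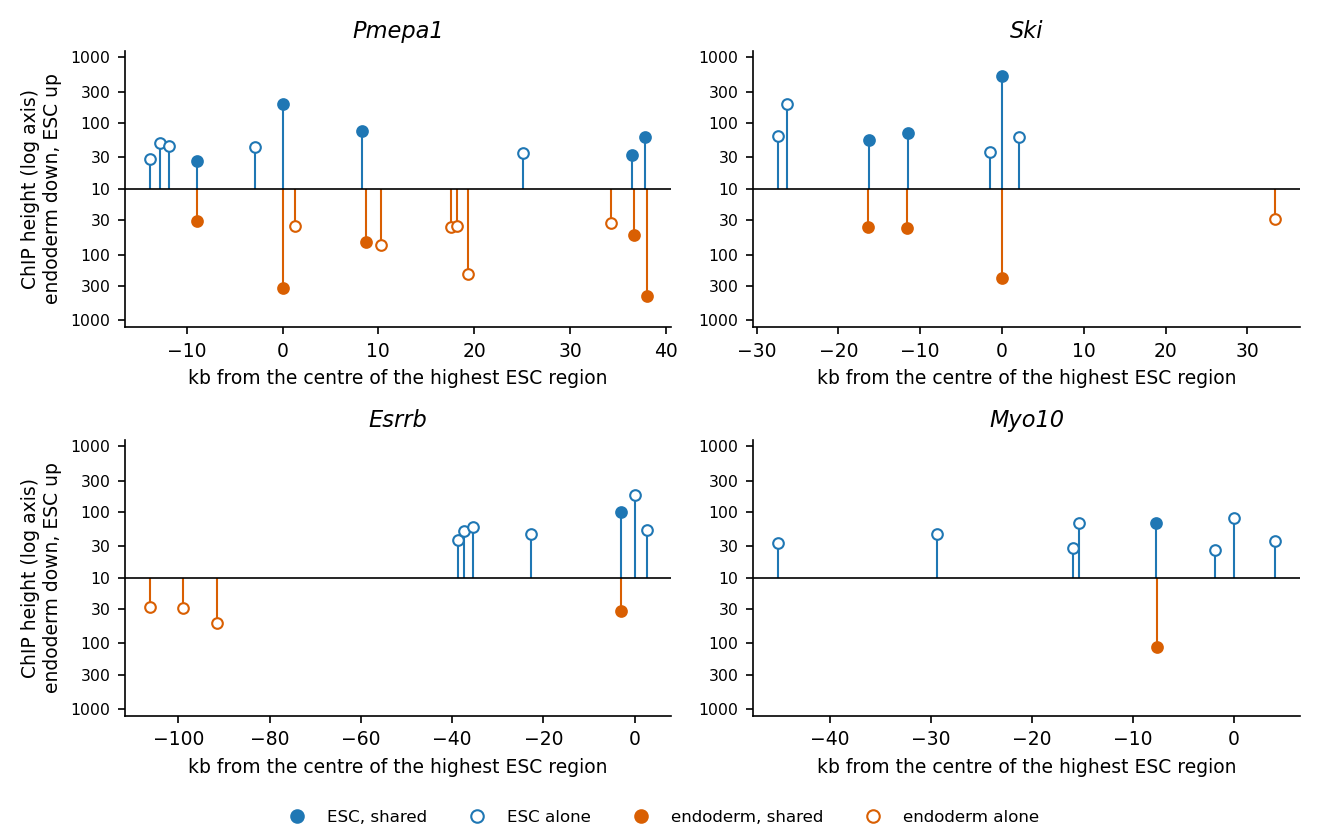
SMAD2/3 regions in Pmepa1, Ski, Esrrb and Myo10 (x axis, kb along the genome from the centre of the gene's highest ESC region; y axis, ChIP height on a log axis, ESC upward and endoderm downward; filled symbols are shared, open ones alone). Pmepa1 has 5 filled pairs among 10 ESC and 11 endoderm regions, while Esrrb and Myo10 have 1 each.

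Of the 1196 genes of both states 916 (76.6%) kept a site, meaning that a region of the gene overlapped between the lists, and 279 (23.3%, 95% CI 21.0 to 25.8) changed site, meaning that none did. The 1 other gene, Pim3, had an ESC region that overlapped an endoderm region not assigned to it. Of the genes that kept a site 499 had no region alone in either state, 229 had further regions in endoderm alone, 70 in ESCs alone and 118 in both. In the genes that changed site the nearest regions lay a median of 15176 bp apart (quartiles 4429.5 and 38467.5), and in 24 they lay within 1000 bp. With a height of at least 50 in both lists, 169 genes were left in both states, and 19.5% of them changed site.

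Among the 279 genes that changed site, 135 (48.4%, 42.4 to 54.4) had no promoter-proximal region in ESCs and one in endoderm, and 11 (3.94%) the reverse. In 18 both states had one and in 115 neither. Among the 916 genes that kept a site, 118 (12.9%) had one in endoderm only and 8 (0.873%) in ESCs only, while 470 had one in both states and 320 in neither. The larger promoter-proximal part of the endoderm list, 30.6% of its alone regions against 7.02% of the ESC alone regions, moves with this count, and its part in it was not tested.

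Zmynd8 held 186 in ESCs (chromosome 2, 165694195 to 165694660, at 15528 bp from the 5′ end) and 85.8 in endoderm (165708416 to 165708882, at 1306 bp). Trim67, a ubiquitin ligase gene, held 116 in ESCs at 7458 bp and 75.9 in endoderm over the 5′ end. Kcnk5, a potassium channel gene, held 74.4 at 2786 bp in ESCs, and in endoderm 55.3 at 28700 bp and a lower region of 26.3 over the 5′ end. In all 3 genes an endoderm region thus lay nearer the 5′ end than the highest ESC region. In Kcnk5 this was only the region of 26.3, close to the lowest height listed. Tead1, which encodes a partner of YAP, had 2 ESC regions, 8990 and 11120 bp from the 5′ end (62.6 and 59.2), and 6 in endoderm, the nearest 17839 bp from it and the highest at 79.5. Bmp7, a BMP ligand gene, held 61.9 at 68089 bp in ESCs and 61.3 at 1264 bp in endoderm. Pax7, a neural crest and muscle factor gene, had 25.6 in ESCs and 186 in endoderm, 13264 bp apart, and a lower endoderm region 8592 bp from the ESC region.

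MicroRNA genes were read as well, a choice made after the values were seen. Of 26 miRNA genes with a region 5 were listed in ESCs alone, 16 in endoderm alone and 5 in both, where of all 5726 listed genes 480, 4050 and 1196 were. Several miRNA genes share 1 region, and Mir181c and Mir181d count as ESC alone although 1 of their regions overlapped an endoderm region assigned to neither. Likewise Mir425 counts as endoderm alone although its region overlapped an ESC region not assigned to it. An ESC alone region (chromosome 7, 3217502 to 3217966; height 56.3, rank 716) lay 661 bp from Mir290 and 954 bp from Mir291a, members of a cluster known for its abundance in ESCs. The nearest endoderm SMAD2/3 region lay 3535 bp from it, and it overlapped HEB in both states. An endoderm alone region (chromosome 3, 127247561 to 127248181; height 30.5, rank 7218) covered Mir302b and lay within 1 kb of Mir302a, Mir302c, Mir302d and Mir367. The mature sequences (RefSeq, 5′ to 3′) are printed to show that some products of both clusters share a seed, bases 2 to 8, given in capitals.
miR-291a-3p: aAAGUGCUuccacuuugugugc
miR-302b-3p: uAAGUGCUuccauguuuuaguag
miR-302d-3p: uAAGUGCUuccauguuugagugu
miR-302c-3p: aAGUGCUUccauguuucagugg
miR-367-3p: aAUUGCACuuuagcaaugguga
The seed AAGUGCU was the same in miR-291a-3p, near the ESC alone region, and in miR-302b-3p and miR-302d-3p, at or near the endoderm alone region. The seed of miR-302c-3p, AGUGCUU, is offset by 1 base and that of miR-367-3p is unrelated. In the cluster near the ESC alone region miR-290a-3p, not printed, has the seed AAGUGCC, which differs in its last base. The endoderm region stood low in its list, at percentile 34.6, and the ESC region at 82.6 of its own.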

How the data were processed

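SMAD2/3 was profiled by ChIP-seq in 1 library of each state on the Genome Analyzer II. Per the submitters' processing notes CASAVA 1.8.2 and build mm9 were used. No source used here gives the region caller, its settings, the gene annotation or the coordinate base. Per the file headers, the deposited lists give for each region the counts of ChIP and background tags, their ratio (tag enrichment, with a floor on the background), and the highest signal of the ChIP and background profiles. The authors' rank score was not used. Their column headed as −log10 of a q-value, treated as a score, was not used because its values are too large for that scale. The authors assigned a gene where a region lay in it or within 1 kb, and gave the distance to its 5′ end.

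Each region was counted once, by its index. Overlaps of at least 1 bp, within-list percentiles, gene classes and exact Clopper-Pearson 95% intervals were computed with Python 3.11.15, pandas 2.3.3, NumPy 2.4.6 and SciPy 1.17.1, and plotted with matplotlib 3.10.9. The intervals cover counting error only. The code was tested on simulated lists and its overlaps checked with a separate tool. Library totals are not given, so sequencing depth is not known. The listed regions held 933126 ChIP and 131067 background tags in ESCs and 2600741 and 247639 in endoderm. These sums depend on the number of regions listed and do not measure depth. Of 5726 listed symbols 5683 matched RefSeq. No genome of build mm9 was used, so no sequence was read by region.

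Named were all Nodal/activin genes, up to 5 genes per class of each other list by height percentile, the 10 highest regions with a gene in each class, the 10 genes with the most regions in each list, the 10 genes that changed site whose lower percentile was highest, and Skil, Nodal and Pmepa1. Some results under this rule are not reported here. The members and lists were chosen with earlier results of these data known. Alternatives covered overlap rules, height and enrichment thresholds, equal list lengths and the promoter definition.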

Additional observations from a re-analysis of the deposited data

How the results depend on the processing

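Of 141 values recomputed under an alternative, 81 stayed within the interval or 1.5 times of the value reported and 60 moved out of it. Nearly all are shares and counts, which have no sign to change, but some orders turned. Among these were the ESC shared and alone percentiles and the ribosomal gene counts. The promoter-proximal share of the endoderm alone regions also changed order with that of each other class under at least 1 alternative. The share of ESC and endoderm regions that were shared was 30.4% and 11.3% with a reciprocal overlap of 50%, 42.3% and 15.7% when regions up to 1000 bp apart counted, 32.6% and 11.7% with a height of at least 50, 34.05% and 12.5% for the regions above their list's median height, 25.0% and 24.3% with equal length by height, 19.2% and 18.7% with equal length by tag enrichment, and 35.7% and 11.1% with a tag enrichment of at least 5. The promoter-proximal share of ESC shared, endoderm shared and ESC alone regions was 24.4%, 24.3% and 11.1% with a reciprocal overlap of 50%. For ESC shared, endoderm shared and endoderm alone regions it was 17.2%, 17.3% and 14.5% with a height of at least 50, and 20%, 20.3% and 23.7% above the median height. For ESC shared, endoderm shared, ESC alone and endoderm alone regions it was 25.1%, 25.3%, 11.9% and 18.0% with equal length by height, 16.0%, 15.8%, 15.0% and 11.6% with equal length by tag enrichment, 19.0%, 23.0%, 3.25% and 24.7% for regions over the 5′ end, and 17.8%, 18.0%, 6.01% and 29.1% with a tag enrichment of at least 5. Ranked by tag enrichment, the median percentiles of these 4 classes were 49.3, 61.7, 50.4 and 48.4, and the rank correlation of pairs was 0.64. With a height of at least 50, 169 genes were in both states, 19.5% changed site and 80.5% kept one. With equal length by height 735 genes were in both and 21.0% changed site, and with a tag enrichment of at least 5 these shares were 29.98% changed and 69.9% kept. With equal length by height the endoderm list held 13 Nodal/activin, 2 mesoderm, 4 neuroectoderm, 7 FGF and ERK feedback, 6 Wnt, 2 extraembryonic and epithelial and 1 ribosomal genes. No share over all genes was computed for that shortened list. With a tag enrichment of at least 5 the ESC list held 1 mesoderm and 0 ribosomal genes. Stricter thresholds and equal lengths leave fewer regions by construction, and beyond that the cause was not tested. The threshold on tag enrichment and the removal of regions with 200 or more background tags were chosen after seeing the data. No paired analysis was possible because each state has 1 library, and for the same reason no replicate could be left out. A region missing from a list may lie just under the authors' threshold.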

Other observations

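The highest regions of both lists included some to which the authors assigned no gene. The highest ESC region (chromosome 1, 182854591 to 182855663) had a height of 1258 with 6594 ChIP and 88 background tags, and overlapped an endoderm region of 1314, rank 2. It lies on the same chromosome as the Lefty1 region that starts at 182863307. A second shared region without a gene (182817910 to 182819899) had 783 in ESCs, rank 4, and 720 in endoderm, rank 13, and precedes the Lefty2 region that starts at 182822958. Both regions stood above the 445 and 58.8 found at the 5′ ends of Lefty1 and Lefty2 in ESCs.

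Another shared region without a gene, on chromosome 2 (173159403 to 173161953), had 1009 in endoderm, rank 6, and lies beyond the 5′ end region of Pmepa1. Among regions of 1 state the highest in endoderm without a gene (chromosome 15, 38099044 to 38100182) had 792, rank 11, with no ESC region within 90828 bp. The highest in ESCs (chromosome 10, 62360771 to 62361463) had 258, rank 26, with no endoderm region within 10410 bp, and overlapped HEB in ESCs and not in endoderm. These regions were picked after their values were seen, by height alone.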
